A study of Mus musculus with 17 samples.

Results

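The mRNA of 7 integrin subunits and of 1 integrin-binding muscle protein was followed in mouse diaphragm, the main breathing muscle, in a series that asked how a tumor and the secreted protein Fibcd1 act on this muscle. The 8 genes were chosen by symbol from a table of 47643 gene symbols: the alpha subunits Itga5, Itga6, Itga7 and Itgav, the beta subunits Itgb1, Itgb3 and Itgb5, and Itgb1bp2, which encodes melusin. All 17 mice were C57BL/6J males, 4 months old. Control mice (n = 5) carried no tumor and received mock injections of saline with albumin, and Control + rFibcd1 mice (n = 5) received rFibcd1, a recombinant C-terminal piece of mouse Fibcd1 that holds its fibrinogen-like domain. LLC mice (n = 3) bore flank tumors of Lewis lung carcinoma cells, which had been placed under the skin on both sides, and received mock injections, while LLC + rFibcd1 mice (n = 4) carried the same tumors and received rFibcd1. Injections were given into the peritoneal cavity during the last week of tumor growth. RNA came from a piece of the muscle portion of the diaphragm, freed from tendon, which still holds many cell types, so fewer cells of a type and less RNA per cell cannot be told apart in any value below.

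Integrins are cell surface receptors made of an alpha and a beta subunit that tie the extracellular matrix to the cytoskeleton. In muscle, Itga7 pairs with Itgb1 as the main laminin receptor of the fiber and sits at costameres and myotendinous junctions, Itga5 pairs with Itgb1 as a fibronectin receptor, and Itga6 pairs with Itgb1 or Itgb4 as another laminin receptor. Itgav pairs with Itgb3 or Itgb5 in receptors of vitronectin and related matrix proteins, and its Itgb3 heterodimer also binds fibrinogen, whose C-terminal fold is shared by Fibcd1. Melusin is a protein of striated muscle that binds the cytoplasmic tail of the Itgb1 product. Binding was not measured in these libraries, which report only how much mRNA of each gene was present.

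The beta subunits differ in the cytoplasmic tail that talin, kindlin and melusin reach, and the ends of their coding sequences are shown for that reason. Each run is the last 150 coding bases of 1 transcript, stop codon included, read 5′ to 3′ from the GENCODE vM21 models on GRCm38, and capitals mark codons for an asparagine, a proline, any residue and a tyrosine, the talin-binding type of motif called NPxY.
Itgb1-201, chr8:128726103-128732088, plus strand, in 2 exons: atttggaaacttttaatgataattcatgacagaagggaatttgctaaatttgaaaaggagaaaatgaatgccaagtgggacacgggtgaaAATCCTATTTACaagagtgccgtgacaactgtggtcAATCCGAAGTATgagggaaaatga
Itgb3-201, chr11:104665549-104667145, plus strand, in 2 exons: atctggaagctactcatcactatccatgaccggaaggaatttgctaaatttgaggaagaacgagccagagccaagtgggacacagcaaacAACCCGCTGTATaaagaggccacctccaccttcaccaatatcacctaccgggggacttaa
Itgb5-202, chr16:33947828-33948752, plus strand, in 2 exons: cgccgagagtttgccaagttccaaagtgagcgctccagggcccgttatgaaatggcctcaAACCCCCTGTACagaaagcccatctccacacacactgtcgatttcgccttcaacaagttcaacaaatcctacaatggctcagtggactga
The Itgb1 end held 2 such stretches, and the Itgb3 and Itgb5 ends held 1 each. Stretches with another residue in place of the proline were not marked, so these counts do not cover every related motif of a tail. TPM values were given per gene, so the transcripts that end differently at Itgb5 (the Itgb5-201 model had 0 such stretches in its last 150 coding bases) cannot be told apart here.

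The genes lay on GRCm38 at chr15:103344286-103366763 (Itga5, minus strand), chr2:71745616-71858416 (Itga6), chr10:128933818-128958282 (Itga7), chr2:83724397-83806916 (Itgav), chr8:128685654-128733200 (Itgb1), chr11:104608000-104670476 (Itgb3), chr16:33829665-33949338 (Itgb5) and chrX:101449088-101453541 (Itgb1bp2), all but the first on the plus strand. Itga5, Itga6, Itga7 and Itgav overlapped other annotated genes, such as Mettl7b on the opposite strand of Itga7, while Itgb1, Itgb3, Itgb5 and Itgb1bp2 overlapped none. For 4 of the 8 genes (Itga5, Itgav, Itgb1 and Itgb5) RefSeq promoter windows on GRCm38.p6 were at hand, each running from 250 bases before to 50 after the start. The windows of Itga5 and Itgb1, the pair that forms a fibronectin receptor, are shown 5′ to 3′ on the gene's strand, with capitals for GGGCGG and CANNTG on either strand.
Itga5, chr15:103366742-103367041, minus strand: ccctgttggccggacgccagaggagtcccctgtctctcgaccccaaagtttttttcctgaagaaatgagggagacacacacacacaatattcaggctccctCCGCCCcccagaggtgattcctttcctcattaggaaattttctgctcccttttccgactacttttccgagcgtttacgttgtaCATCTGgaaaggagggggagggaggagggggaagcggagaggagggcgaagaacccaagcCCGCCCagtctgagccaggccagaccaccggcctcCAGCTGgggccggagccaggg
Itgb1, chr8:128685404-128685703, plus strand: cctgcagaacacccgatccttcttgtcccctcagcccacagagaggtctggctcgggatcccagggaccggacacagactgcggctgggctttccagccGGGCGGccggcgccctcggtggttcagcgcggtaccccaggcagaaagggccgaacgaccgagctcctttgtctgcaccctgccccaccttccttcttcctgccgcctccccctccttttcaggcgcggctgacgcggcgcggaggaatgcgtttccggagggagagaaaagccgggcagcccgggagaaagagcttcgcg
GGGCGG was found 2 times at Itga5, 1 time at Itgb1, 1 time at Itgav and 3 times at Itgb5, and 35.7% of all 32851 windows of that length held it. CANNTG was found 2 times at Itga5 and 3 times at Itgb5 but 0 times at Itgb1 and Itgav, against 72.3% of all windows with at least 1. TGANTCA and TATAAA, each searched on both strands, had 0 matches in these 4 windows, against 7.81% and 13.6% of all windows. No match of 1 motif overlapped a match of another, and a match is only a match of letters.

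Values were deposited as TPM, reads of a gene per base of its length, scaled to a sum of 1000000 in each mouse, so levels of different genes can be set side by side. The steps between low values gave an estimated depth per mouse of 50.8 to 54.6 times 1000000 reads. The least covered of the 8 genes, Itgb3, rested on about 148 to 893 reads per mouse and the most covered, Itga7, on about 10028 to 15792. Mitochondrially encoded genes took 45.9% to 48.4% of all TPM in Control mice, 45.4% to 50.4% in Control + rFibcd1, 41.3% to 44.3% in LLC and 43.7% to 46.5% in LLC + rFibcd1 mice. The tissue label was met by its markers, since 9 myofiber genes summed to between 40020 and 51950 TPM in every mouse. Control + rFibcd1 replicate 1 stood apart in leukocyte transcripts, with Itgb2, the beta subunit of the leukocyte integrins, at 33.8 TPM against 3.04 to 8.58 in the rest of its group. LLC replicate 3 had the lowest mitochondrial share (41.3%) and the highest Itgb1, Itgb3 and Itga5 of all 17 mice. Values without one or the other are given beside the results they touch most.

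All 8 genes were detected in every mouse, and their levels covered a wide range. In Control mice Itgb1bp2 was the highest at 190.1 ± 11.2 TPM (SD, n = 5), followed by Itgb1 at 105 ± 5.7, Itga7 at 58.3 ± 2.9 and Itgb5 at 56.1 ± 1.8. Itga6 (12.1 ± 1.0 TPM) and Itga5 (11.9 ± 2.1 TPM) came next, then Itgav (3.95 ± 0.34 TPM) and Itgb3 (1.91 ± 0.21 TPM). The neighbours Itga7 and Itgb5, and the neighbours Itga6 and Itga5, had overlapping ranges over the 5 mice, and the other neighbours did not. The order was the same in Control + rFibcd1 mice. In LLC mice the ranges of Itgb1bp2 (126 to 148 TPM) and Itgb1 (120 to 136 TPM) came to overlap, and Itgb3 (2.91 to 6.25 TPM) reached the range of Itgav (3.48 to 4.35 TPM). Itgb3 varied most between mice, with a coefficient of variation of 47.4% over all 17, and Itgb5 least, at 8.14%.

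**Figure D1:**
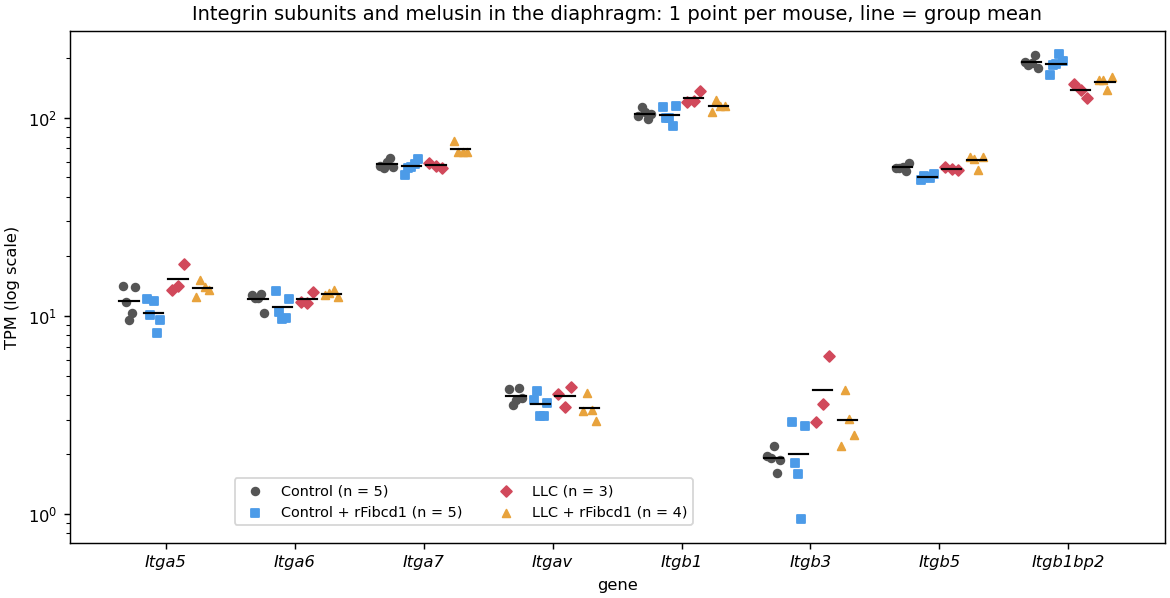
TPM of the 8 genes (y axis, log scale) in each of the 17 mice, with a point per mouse, a symbol per group and a line at each group mean. Itgb1bp2 of the 7 tumor-bearing mice lies below all 10 tumor-free mice, and Itgb3 reaches its highest value, 6.25 TPM, in an LLC mouse.

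Itgb1 and Itgb5 supplied most beta subunit mRNA of the diaphragm, and Itga7 had the largest share of alpha subunit mRNA. Of the summed TPM of 9 beta subunit genes in Control mice, Itgb1 made up 56.1% ± 1.4 and Itgb5 30.1% ± 1.6 (SD, n = 5), and Itgb3 only 1.03% ± 0.11. In LLC mice the shares were 52.9% ± 0.54 for Itgb1, 23.3% ± 2.0 for Itgb5 and 1.76% ± 0.60 for Itgb3 (n = 3), while the leukocyte subunit Itgb2 went from 3.89% ± 1.3 to 10.1% ± 1.0. Itga7 made up 50.8% ± 1.9 of the summed TPM of 19 alpha subunit rows in Control, 49.9% ± 9.6 in Control + rFibcd1, 40.2% ± 3.5 in LLC and 49.5% ± 4.8 in LLC + rFibcd1 mice. The Itga7 share in LLC mice (36.4% to 43.3%) lay below every Control mouse (48.6% to 52.7%) and every LLC + rFibcd1 mouse (44.6% to 54.6%), and below Control + rFibcd1 replicates 2 to 5 (51.1% to 59.5%), while replicate 1 of that group was at 33.8%. These shares have no test and depend on all subunits that make up the sum, those of leukocytes included.

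**Figure D2:**
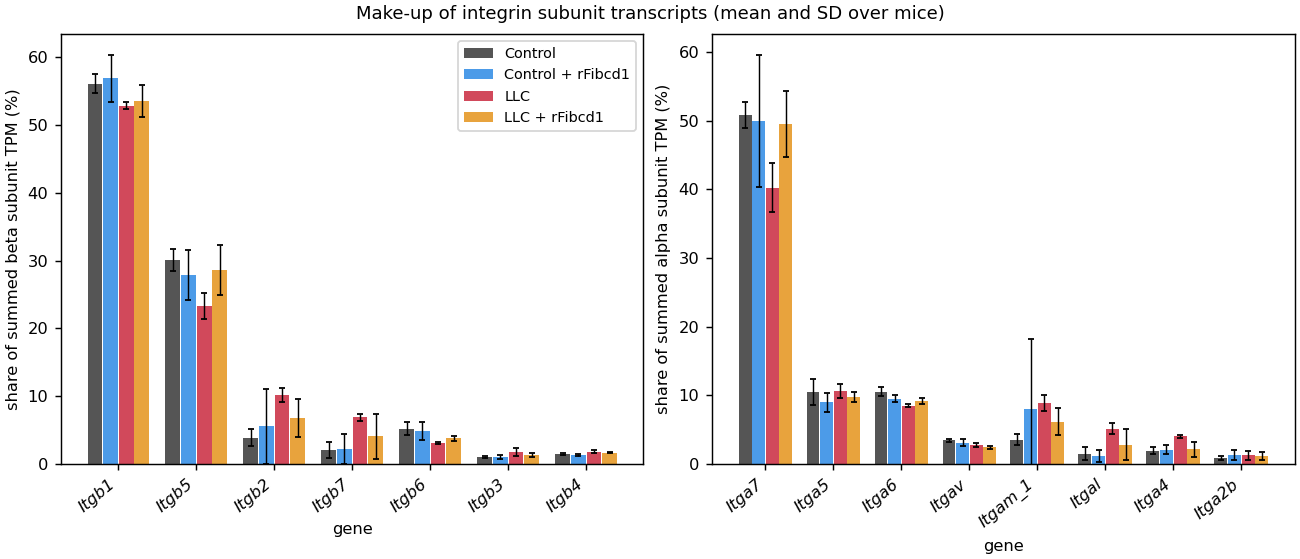
Share of the summed beta subunit TPM (left) and alpha subunit TPM (right), in percent, for selected subunits, as mean bars with SD over 5, 5, 3 and 4 mice. Itgb1, Itgb5 and Itga7 dominate in all 4 groups, and Itgb2 takes 10.1% of beta subunit mRNA in LLC mice against 3.89% in Control.

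Melusin mRNA fell with the tumor and was the clearest change among the 8 genes. Itgb1bp2 stood at 191, 184, 189, 208 and 178 TPM in Control replicates 1 to 5, at 165, 185, 186, 208 and 192 TPM in Control + rFibcd1, at 148, 138 and 126 TPM in LLC, and at 155, 155, 138 and 160 TPM in LLC + rFibcd1 mice. Every tumor-bearing mouse, rFibcd1-treated or not, was thus below every tumor-free mouse. Between LLC and Control the mean fell by 27.7%, a change of −0.47 ± 0.07 (SE) on the log2(TPM + 1) scale (limma adjusted p = 0.00735). Over all 7 tumor-bearing against 10 tumor-free mice the change was −0.37 ± 0.05 (limma adjusted p = 0.000431), and LLC + rFibcd1 against Control gave −0.32 ± 0.07 (limma adjusted p = 0.0203). Of all 13305 genes tested, 2.26% separated the 7 from the 10 mice without overlap, and of the 8 genes only Itgb1bp2 did.

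Itgb1, the beta subunit shared by most integrins of the fiber, rose in LLC mice. It stood at 102, 113, 107, 98.2 and 104 TPM in Control mice and at 119, 122 and 136 TPM in LLC mice, with no overlap. The LLC mean was 20.1% higher, a log2 change of 0.26 ± 0.07 (limma adjusted p = 0.0176). It did not pass without LLC replicate 3 (limma adjusted p = 0.106), under any of 3 other scalings (0.0687 to 0.228) or with the replicate number as a block (0.0646). In LLC + rFibcd1 mice the values were 107, 123, 114 and 115 TPM, which overlapped Control mice (log2 change 0.13 ± 0.07, limma adjusted p = 0.308) as well as LLC mice. Control + rFibcd1 mice ranged from 90.9 to 115 TPM.

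Itga5, the fibronectin receptor partner of Itgb1, was 28.2% higher on average in LLC than in Control mice but did not pass the test. It stood at 14.1, 11.8, 9.51, 10.4 and 14.0 TPM in Control, at 13.6, 14.1 and 18.3 TPM in LLC, and at 12.5, 15.2, 13.9 and 13.6 TPM in LLC + rFibcd1 mice. The Control and LLC groups overlapped, and the log2 change was 0.34 ± 0.14 (limma adjusted p = 0.0731). Over all tumor-bearing against tumor-free mice Itga5 rose by 0.35 ± 0.10 (limma adjusted p = 0.00981). Control + rFibcd1 mice ran from 8.16 to 12.2 TPM, which overlapped Control mice.

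Itgb3, the subunit of the fibrinogen- and vitronectin-binding integrins, showed the largest relative rise. It stood at 1.96, 1.93, 2.19, 1.61 and 1.87 TPM in Control mice and at 2.91, 3.59 and 6.25 TPM in LLC mice, and the LLC mean was 2.22 times that of Control. The groups did not overlap, and the log2(TPM + 1) change was 0.80 ± 0.23 (limma adjusted p = 0.0186), which understates the change of so low a gene. Without LLC replicate 3, the mouse at 6.25 TPM, that change was 0.54 (limma adjusted p = 0.1245). In LLC + rFibcd1 mice the values were 2.21, 4.21, 3.02 and 2.50 TPM, and the change from Control was 0.43 ± 0.21 (limma adjusted p = 0.274). Control + rFibcd1 mice spread widely, at 2.91, 1.82, 1.59, 0.939 and 2.77 TPM. Over tumor-bearing against tumor-free mice Itgb3 rose by 0.59 ± 0.16 (limma adjusted p = 0.00892). Its alpha partner Itgav stayed between 2.94 and 4.35 TPM in all 17 mice, with a log2 change between LLC and Control of −0.0011 (95% interval −0.21 to 0.21).

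Itga7, the laminin receptor subunit of the fiber, and Itgb5, the abundant partner of Itgav, did not pass the test between LLC and Control mice and were highest in the LLC + rFibcd1 group. Itga7 stood at 57.3, 55.6, 59.8, 62.8 and 56.2 TPM in Control, at 59.1, 57.4 and 56.0 TPM in LLC, and at 76.2, 67.4, 67.1 and 67.1 TPM in LLC + rFibcd1 mice. Itgb5 stood at 55.4, 55.8, 56.4, 54.0 and 58.9 TPM in Control, at 56.5, 54.9 and 54.4 TPM in LLC, and at 63.1, 62.2, 54.7 and 63.3 TPM in LLC + rFibcd1 mice. All 4 LLC + rFibcd1 mice exceeded all Control and LLC mice in Itga7, whereas in Itgb5 replicate 3 lay among them. Between LLC and Control the log2 change was −0.02 for Itga7 (95% interval −0.15 to 0.11) and −0.02 for Itgb5 (−0.12 to 0.08). Itga6 also differed little on average, at 10.3 to 12.9 TPM in Control and 11.6 to 13.2 TPM in LLC mice (log2 change 0.01, 95% interval −0.19 to 0.21).

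In all, 3 of the 8 genes passed an adjusted p of 0.05 between LLC and Control mice, against 35.8% of all genes tested. Itgb1 and Itgb3 were higher, as were 29.7% of all genes, and Itgb1bp2 was lower, as were 6.02%. These 3 were also those whose LLC and Control mice did not overlap, against 40.2% of all genes. Over tumor-bearing against tumor-free mice, 6 of the 8 passed, against 44.8% of all genes. Itga5, Itga7, Itgb1, Itgb3 and Itgb5 were higher (38.8% of all genes) and Itgb1bp2 lower (5.98%). Of these, Itga7 and Itgb5 had log2 changes of only −0.02 each between LLC and Control mice. In LLC + rFibcd1 mice they averaged 69.45 and 60.81 TPM, against 57.48 and 55.27 TPM in LLC mice. Itgb5 averaged 50.28 TPM in Control + rFibcd1 and 56.1 TPM in Control mice. Neither gene passed the rank-sum test over tumor-bearing against tumor-free mice, by which 26.7% of all genes were higher. Without LLC replicate 3, 0 of the 8 passed between LLC and Control, with limma adjusted p = 0.106 for Itgb1, 0.1245 for Itgb3 and 0.05655 for Itgb1bp2, and only 24 of 13195 genes passed at all. Over tumor-bearing against tumor-free mice the same 6 genes passed without that mouse, when 27% of all genes were higher and 4.4% lower.

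**Figure D3:**
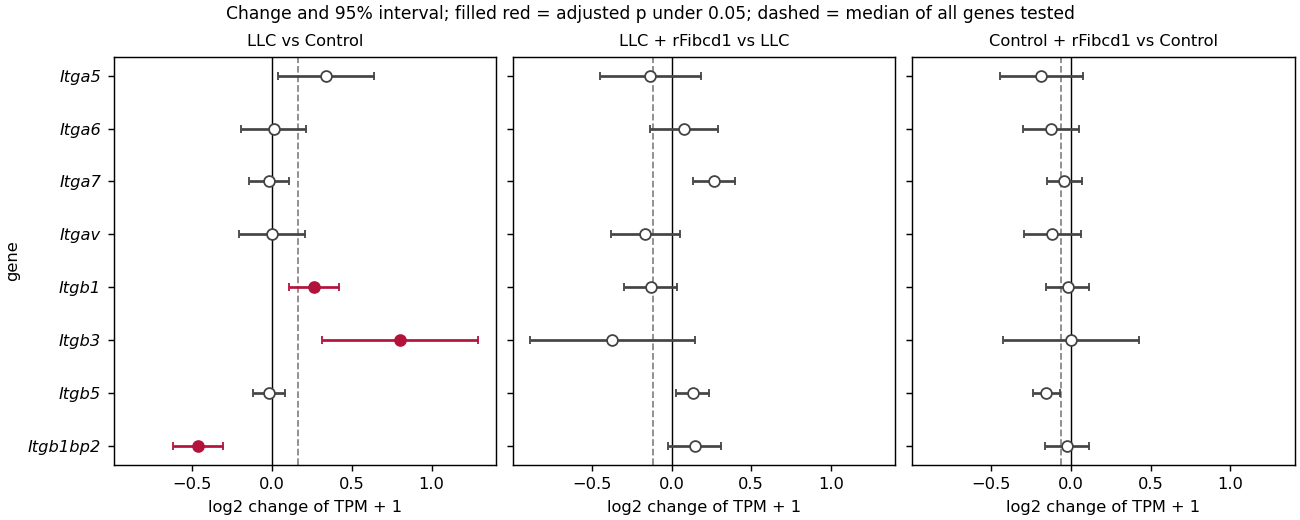
Log2 change of TPM + 1 (x axis) of each gene with its 95% interval in 3 comparisons, with filled red points for an adjusted p under 0.05 and a dashed line at the median of all genes tested. Itgb1 and Itgb3 lie above and Itgb1bp2 below 0 in LLC against Control mice, and no point is filled in the comparisons of rFibcd1 with mock.

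The size of these changes depended on how the mice were scaled to each other. The median gene was 0.16 higher (log2) in LLC than in Control mice and 0.13 higher in tumor-bearing than in tumor-free mice, while the mitochondrial share was lower. Relative to the median gene, the LLC against Control change was −0.63 for Itgb1bp2, 0.64 for Itgb3, 0.10 for Itgb1 and −0.18 for both Itga7 and Itgb5. Between LLC and Control mice Itgb1bp2 passed under each of the 3 other scalings (rescaling without mitochondrial genes, median-ratio scaling and quantile normalization), Itgb3 under all but quantile normalization (limma adjusted p = 0.0521), and Itgb1 under none of the 3 (limma adjusted p = 0.0687 to 0.228). Quantile normalization passed 4 of the 8 in that comparison, but besides Itgb1bp2 these were 3 other genes, all lower, in a setting where 4688 of 13305 genes passed and only 1512 of them were higher: Itga6 (−0.24, limma adjusted p = 0.0193), Itgav (−0.33, limma adjusted p = 0.00937) and Itgb5 (−0.18, limma adjusted p = 0.0489). Over tumor-bearing against tumor-free mice, Itgb1bp2 and Itgb3 passed as deposited and under all 3. Itga5 and Itgb1 passed only as deposited and without mitochondrial genes, and Itga7 and Itgb5 only as deposited, with Itgb5 turning to −0.0091 under median-ratio scaling. Itgav, which did not pass as deposited, was lower under median-ratio scaling (−0.15, limma adjusted p = 0.0332) and quantile normalization (−0.27, limma adjusted p = 0.00261).

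**Figure D4:**
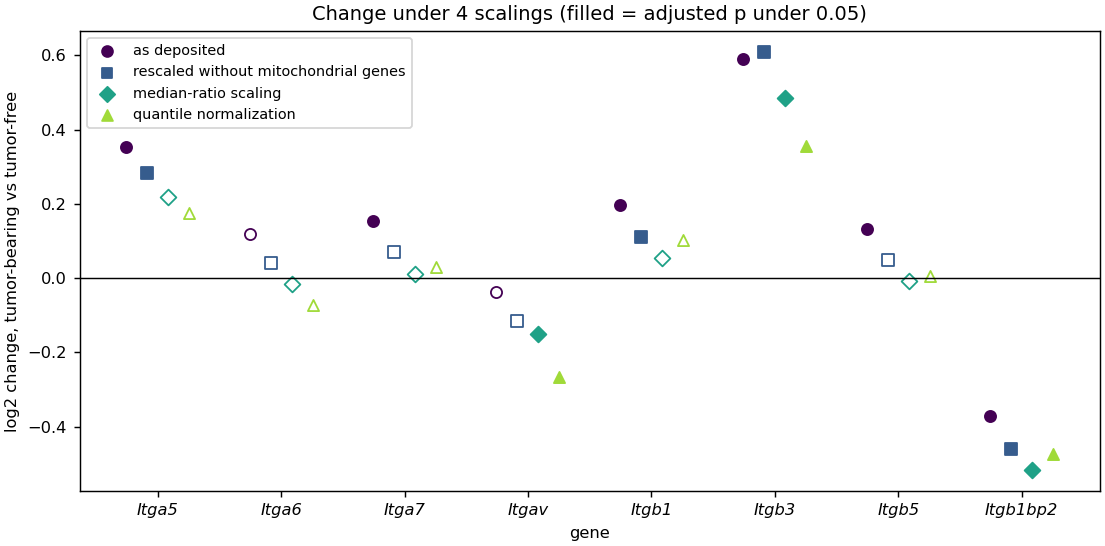
Log2 change between 7 tumor-bearing and 10 tumor-free mice (y axis) for each gene under 4 ways of scaling the mice, with filled symbols for an adjusted p under 0.05. Itgb3 and Itgb1bp2 are filled under all 4, while Itga7 and Itgb5 lie close to 0 under median-ratio scaling.

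The rFibcd1 comparison in tumor-bearing mice asked whether the recombinant protein moved the mRNA of these subunits. In LLC + rFibcd1 against LLC mice 0 of the 8 genes passed the limma test after adjustment, against 0.113% of all genes, and 2 of the 8 had an unadjusted p under 0.05, as did 3025 of all 13305 genes. Dunn's rank test with adjustment also passed 0 genes. It passed 0 of all 13305 genes between LLC and Control mice too, where limma passed 4759, so its 0 says nothing about these genes. Itga7 was 20.8% higher on average, with a log2 change of 0.27 ± 0.06 (95% interval 0.13 to 0.40, limma adjusted p = 0.12), and its groups did not overlap. Of all genes, 14.6% did not overlap in this comparison. Itgb5 was 10.02% higher (0.13 ± 0.05, limma adjusted p = 0.195). Itgb3 was 29.7% lower on average, but its interval ran from −0.89 to 0.14, and that of Itgb1 from −0.30 to 0.03. Without LLC replicate 3 the log2 change of Itgb3 went from −0.37 to −0.11, that of Itgb1 from −0.13 to −0.07 and that of Itga5 from −0.13 to −0.0079. Itgb1bp2 differed by 0.15 (−0.02 to 0.31), Itga6 by 0.08 (−0.13 to 0.29), Itgav by −0.17 (−0.38 to 0.05) and Itga5 by −0.13 (−0.45 to 0.18). The median gene was 0.11 lower in LLC + rFibcd1 mice, so relative to it Itga7 was 0.38 and Itgb5 0.25 higher. Under the 9 other settings tried, and with each of the 17 mice left out, the log2 change of Itga7 stayed between 0.22 and 0.38, and in none of them did it pass.

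Against Control mice, which also serve in the comparison with LLC mice, LLC + rFibcd1 mice differed in 2 of the 8 genes, against 3.08% of all genes. Itga7 was higher by 0.25 ± 0.06 (limma adjusted p = 0.0254), as were 2.07% of all genes, and Itgb1bp2 was lower, as were 1.01%. Itga7, Itgb3 and Itgb1bp2 did not overlap between these groups, against 8.88% of all genes. The Itga7 result lost significance without any 1 of 5 mice, namely Control replicates 1 and 5 and LLC + rFibcd1 replicates 1, 2 and 3, with a largest limma adjusted p of 0.0687, and under each of the 3 other scalings (limma adjusted p = 0.157 to 0.255). That of Itgb1bp2 did so without Control replicate 4 or LLC + rFibcd1 replicate 3, with a largest limma adjusted p of 0.0751, and under median-ratio scaling (limma adjusted p = 0.0703).

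Without a tumor, rFibcd1 moved 0 of the 8 genes past adjustment in limma, against 0% of all genes. Dunn's test also passed 0 genes, as it did between LLC and Control mice. In limma 1 of the 8 had an unadjusted p under 0.05, as did 584 of all genes. That gene was Itgb5, at 48.7, 51.0, 49.97, 49.6 and 52.1 TPM in Control + rFibcd1 mice, all below the Control range of 54.0 to 58.9 TPM. Its log2 change was −0.16 ± 0.04 (95% interval −0.24 to −0.07, limma adjusted p = 0.927), and 0.812% of all genes did not overlap in this comparison. The groups that received rFibcd1 therefore lay on opposite sides of their mock groups in mean Itgb5, 10.4% lower without and 10.02% higher with a tumor. The test of that difference, the interaction of tumor and rFibcd1, gave 0.29 ± 0.06 for Itgb5 (limma adjusted p = 0.12) and 0.31 ± 0.08 for Itga7 (limma adjusted p = 0.18). It passed for 0 of the 8 genes, against 0% of all genes, with 2 of the 8 and 1142 of all genes at an unadjusted p under 0.05.

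Ratios of 2 transcripts within a mouse do not depend on scaling each mouse by a single factor, although quantile normalization can change them. The ratio of Itgb1bp2 to Itga7 averaged 3.26 ± 0.08 in Control mice (SD, n = 5) and 3.31 ± 0.18 in Control + rFibcd1 mice, and it averaged 2.39 ± 0.13 in LLC and 2.19 ± 0.18 in LLC + rFibcd1 mice. It ran from 3.10 to 3.58 over the 10 tumor-free mice and from 2.04 to 2.51 over the 7 tumor-bearing mice, a separation with no overlap. The ratio of Itgb1bp2 to Itgb1 separated them more narrowly, at 1.46 to 2.29 in tumor-free and 0.924 to 1.456 in tumor-bearing mice. Itgb3 to Itgav went from 0.488 ± 0.081 in Control to 1.06 ± 0.36 in LLC mice and was 0.863 ± 0.15 in LLC + rFibcd1 mice. Itga7 to Itgb1 had its lowest mean in LLC mice, at 0.411 to 0.495, against 0.548 to 0.715 in LLC + rFibcd1 mice, and the LLC range overlapped Control mice (0.491 to 0.639). In Control + rFibcd1 mice it was 0.542 to 0.640 in replicates 2 to 5, above every LLC mouse, and 0.455 in replicate 1. The ratios were chosen with the levels known and are given without a test.

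**Figure D5:**
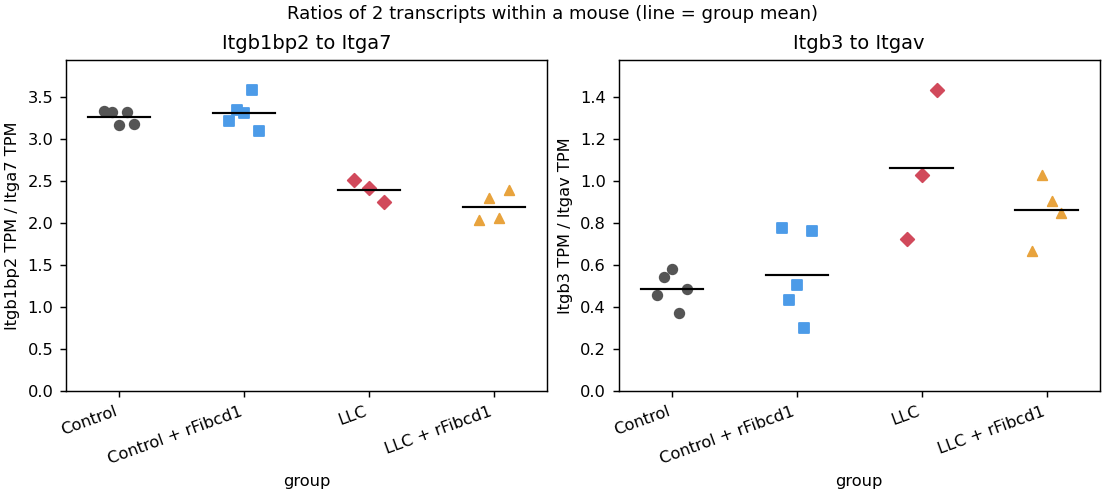
TPM of Itgb1bp2 divided by that of Itga7 (left) and of Itgb3 divided by that of Itgav (right), with a point per mouse and a line at the group mean. The left ratio lies between 3.10 and 3.58 in all 10 tumor-free mice and between 2.04 and 2.51 in all 7 tumor-bearing mice, whereas the right ratios overlap.

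Across the 17 mice Itgb1 and Itgb3 varied together, with a Pearson's r of 0.955 between their log2 values and 0.903 once group means were removed. Itgb1bp2 ran opposite to Itgb3, with r of −0.844 over all mice and −0.65 within groups. Of all tested genes outside the 8, those most like Itgb1bp2 were the mitochondrially encoded mt-Cytb (r = 0.956) together with Mmadhc and mt-Nd4. Itgb1 was closest to Wbp5 (r = 0.964), Itgb3 to Aldh18a1 (0.944), Itga5 to Emd (0.943) and Itgav to Zfp281 (0.968). Itga6 was closest to Terf2ip (0.889), Itga7 to Gm9917 (0.898) and Itgb5 to Pxn (0.839), which encodes the focal adhesion adaptor paxillin, although the r of Itgb5 with Pxn was only 0.329 within groups. All these r are descriptions over mice that share the tumor and treatment groups, the library scaling and the mitochondrial share.

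The whole list of integrin subunits shows how much of the family's mRNA moved with the tumor. Of 27 integrin subunit symbols, 21 entered the test, the 7 described above included. Itgam, a main alpha subunit of myeloid cells, is not among them, because the table holds it as 2 suffixed rows that were not matched to the symbol, the larger of which made up 3.56% ± 0.76 of alpha subunit TPM in Control and 8.87% ± 1.1 in LLC mice. Over tumor-bearing against tumor-free mice 15 of the 21 were higher (5 of them among those 7) and 0 lower, against 38.8% and 5.98% of all genes, with a median log2 change of 0.27 against 0.13 over all genes. Without LLC replicate 3 the counts were 10 and 0 (27% and 4.4% of all genes), and without mitochondrial genes 9 and 1 of 22 tested (24.6% and 10.5%). They were 6 and 2 under median-ratio scaling (19.5% and 16.5% of all genes) and 6 and 2 under quantile normalization (13.7% and 25%). Itgb4, the partner of Itga6 in epithelial and nerve-sheath cells, went from 2.54 ± 0.39 TPM in tumor-free to 3.89 ± 0.67 TPM in tumor-bearing mice (limma adjusted p = 0.00129). The collagen-binding subunits Itga10 (limma adjusted p = 0.0266) and Itga11 (limma adjusted p = 0.00682) rose by 0.27 and 0.26, and Itga9 rose by 0.25 (limma adjusted p = 0.0281), but none of these 3 passed under median-ratio scaling, whereas Itgb4 did (limma adjusted p = 0.00239). Of 6 tested subunits of leukocyte integrins 5 rose: Itgax, Itgal, Itgb7, Itgb2 and Itga4, of which the first 4 also rose under the 3 other scalings. Without LLC replicate 3 only Itgax, Itgal and Itgb7 passed, 3 passed by the rank-sum test, and 2 passed with the replicate number as a block. From tumor-free to tumor-bearing mice Itgal, which forms the receptor of lymphocytes for ICAM proteins, went from 1.60 ± 1.2 to 5.51 ± 3.1 TPM, and Itgb7 from 4.18 ± 3.7 to 12.2 ± 6.8 TPM. Set against Control mice alone, 5 of the 6 leukocyte subunits were higher in LLC mice, against 29.7% of all genes. In LLC + rFibcd1 mice 0 of the 6 passed, against 2.07% of all genes higher. There 0 had an unadjusted p under 0.05, although all 6 log2 changes were positive (median 0.62). Of the 21 subunits 9 were higher than in Control in LLC mice and 1 in LLC + rFibcd1 mice. Itga2b, the platelet partner of Itgb3 in the fibrinogen receptor, averaged 0.983 TPM in Control, 1.57 in Control + rFibcd1, 1.87 in LLC and 1.67 in LLC + rFibcd1 mice. It ran from 0.481 to 3.12 TPM over all mice and did not pass between tumor-bearing and tumor-free mice (0.27 ± 0.21, limma adjusted p = 0.304). In LLC + rFibcd1 against LLC mice 0 of the 21 passed, against 0.113% of all genes, and 4 had an unadjusted p under 0.05, as did 3025 of all 13305 genes.

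Adaptors and ligands of these integrins were read from lists. Of 20 genes of integrin adaptors and the costamere, 10 were higher and 2 lower in tumor-bearing mice, against 38.8% and 5.98% of all genes, and 4 and 2 under median-ratio scaling, against 19.5% and 16.5%. Paxillin (Pxn) rose by 0.21, talin 1 (Tln1), which links beta tails to actin, by 0.33, Itgb1bp1, another Itgb1 tail-binding protein, by 0.21, and Bcar1 by 0.23 (largest limma adjusted p of the 4, 0.00643). Of these 4 only Tln1 passed under median-ratio scaling (limma adjusted p = 0.00652). Of 18 matrix ligands 6 were higher and 0 lower, against the same 38.8% and 5.98% of all genes. The counts were 3 and 3 under median-ratio scaling (19.5% and 16.5%), and 3 and 0 without LLC replicate 3 (27% and 4.4%). The smallest p was that of periostin (Postn), which went from 4.86 ± 0.79 to 9.31 ± 2.9 TPM (limma adjusted p = 0.000393). Mfge8, a secreted ligand of Itgav integrins, rose by 0.46, laminin Lamb2 by 0.21 and tenascin C (Tnc) by 0.55 (largest limma adjusted p of the 3, 0.0213), and Postn, Mfge8 and Tnc, but not Lamb2, also passed under median-ratio scaling. The medians of both lists, 0.16 and 0.17, were near the 0.13 of all genes.

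Markers of other cell types moved with the same groups. The counts of passing markers below stand against 38.8% of all genes higher and 5.98% lower in tumor-bearing mice, or 19.5% and 16.5% under median-ratio scaling. Those shares were 27% and 4.4% without LLC replicate 3, and 43.3% and 6.5% without Control + rFibcd1 replicate 1. They were 26.7% and 4.53% by the rank-sum test, 24.8% and 3.67% with the replicate block, and 13.7% and 25% under quantile normalization. B cell markers summed to 2.39 to 91.2 TPM in Control, 3.32 to 131 in Control + rFibcd1, 208 to 261 in LLC and 17.4 to 258 in LLC + rFibcd1 mice, and all 5 were higher in tumor-bearing mice, but 0 of 5 passed without LLC replicate 3, by the rank-sum test or with the replicate block. Macrophage markers summed to 36.8 to 52.2 TPM in Control, 21.4 to 81.5 in Control + rFibcd1, 74.2 to 86.9 in LLC and 41.5 to 83.0 in LLC + rFibcd1 mice, with 2 of 5 passing, 4 of 5 without Control + rFibcd1 replicate 1 and 1 of 5 without LLC replicate 3. The 5 T cell markers and the 3 tested neutrophil markers were all higher, though of the T cell markers 3 passed without LLC replicate 3, 1 by the rank-sum test and 1 with the replicate block. Set against Control mice alone, all 5 B cell and all 5 T cell markers were higher in LLC mice (29.7% of all genes). In LLC + rFibcd1 mice 0 of 5 passed in either list (2.07% of all genes higher). The 3 neutrophil markers passed in both comparisons. Only Ly6g among the markers of these lists was at 0 in any mouse. Endothelial markers summed to 170 to 194 TPM in Control, 153.2 to 187.5 in Control + rFibcd1, 178 to 210 in LLC and 217 to 238 in LLC + rFibcd1 mice. Of these markers 5 of 6 were higher in tumor-bearing mice and 2 of 6 under median-ratio scaling, while 1 of 6 was higher in LLC than in Control mice (29.7% of all genes). Of 5 platelet and megakaryocyte markers 4 were tested and 0 passed, and their sum ran from 23.0 to 44.1 TPM in Control, 21.4 to 71.3 in Control + rFibcd1, 41.3 to 62.0 in LLC and 24.6 to 77.2 in LLC + rFibcd1 mice. Smooth muscle and pericyte markers summed to 446 TPM in LLC replicate 3 and to 247 to 304 TPM in the other 16 mice. Of these 5 markers 3 were higher and 1 lower in LLC than in Control mice, against 29.7% and 6.02% of all genes. In tumor-bearing mice 2 were higher, 3 without LLC replicate 3, and 0 higher and 1 lower under median-ratio scaling. Fibroblast markers summed to 910 to 953 TPM in LLC against 593 to 854 in Control mice, but to 480 to 872 in Control + rFibcd1 and 532 to 1046 in LLC + rFibcd1 mice, and over tumor-bearing against tumor-free mice 0 of 5 passed in limma, 0 by the rank-sum test, and 0 had an unadjusted p under 0.05. Of 5 Schwann cell markers 2 were higher and of 4 mesothelial markers 1, and none of these passed without LLC replicate 3 or under median-ratio scaling. Of 9 myofiber markers 6 were lower in tumor-bearing mice, with Tnnt3, Ckm, Myh1 and Ryr1 down by 0.22 to 0.50. Des, Myh2 and Myh7 had small positive log2 changes (0.09, 0.02 and 0.04) and did not pass, and under quantile normalization 4 of the 9 were lower, with a median of −0.05. These values stand beside a fall in Itgb1bp2 of 0.37. The part of these cell types in the values of the 8 genes was not tested.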

How the data were processed

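Messenger RNA of 17 diaphragms was sequenced as paired reads. The authors trimmed and filtered the reads, aligned them to GRCm38 (mm10 in the submitters' processing notes) and quantified genes as TPM with CLC Genomics Workbench, and the TPM table was deposited. The labels and the study's methods name different library kits, of which 1 keeps strand, so reads of overlapping genes cannot be assigned. The annotation release was not stated. Every column had a sample (0 left out).

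Log2(TPM + 1) was fitted with limma 3.58.1 (R 4.3.3) for 13305 genes that reached 1 TPM in 3 or more mice, with 4 groups, 13 residual degrees of freedom and a mean-variance trend. Tests were two-sided, adjusted by Benjamini-Hochberg over all genes, with 0.05 as threshold. Tumor-bearing and tumor-free means weighted groups by size. The study's Kruskal-Wallis and Dunn tests were kept as an alternative, since 3 to 5 mice are few for their approximation. The fit was tested on simulated data. Read numbers were estimated from TPM steps with GENCODE vM21 lengths (94.6% of symbols matched): 79.6% to 81.8% of low values were whole within 0.02, against 4% at random. The labels give no batch, and do not say that replicates were handled separately after dissection.

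All 8 genes are named, with Itga2b and Itgb2, up to 8 other integrin subunits that passed, and up to 4 genes of each other list with the smallest p. The 8 genes and the lists were chosen with earlier results of these data known. Alternatives were a pseudocount of 0.1, no filter or one of 5 TPM, 3 other scalings, fits of only the groups compared, rank tests, the replicate number as a block, and each mouse left out.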

Additional observations from a re-analysis of the deposited data

Results flagged for a closer look

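Within groups of 4 or 5 mice, 30 gene and group combinations of the 8 genes, Itga2b and Itgb2 were screened for a mouse far from the rest, and chance would pick about 1 in 20. Groups of 3 were not screened, so LLC mice are not covered. A mouse stood far from its group 4 times. Itga6 was 10.3 TPM in Control replicate 5, below the 12.2 to 12.9 TPM of the other Control mice. Itga7 was 76.2 TPM in LLC + rFibcd1 replicate 1 against 67.1 to 67.4 TPM in the other 3, and without that mouse the log2 change from LLC mice was still positive. Itgb5 was 54.7 TPM in LLC + rFibcd1 replicate 3 against 62.2 to 63.3 TPM in the others, and without it Itgb5 was higher than in Control mice by 0.16 (limma adjusted p = 0.0359). Itgb2 was 33.8 TPM in Control + rFibcd1 replicate 1, the mouse that also had the highest B cell and macrophage marker sums of its group. Without that mouse Itga6 passed between tumor-bearing and tumor-free mice (log2 change 0.14, limma adjusted p = 0.0469), and it did so in no other fit of that comparison with a mouse left out.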

How the results depend on the processing

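The number of the 8 genes that passed was within 1.5 times of the reported count except as follows. Between LLC + rFibcd1 and Control mice it was 0 rather than 2 under median-ratio scaling (364 of all 13237 genes) and under Dunn's test (0 of all 13305). It was 1 under quantile normalization (365 of 13305), without mitochondrial genes (355 of 14406) and with only the 2 groups fitted (260 of 13305). Between tumor-bearing and tumor-free mice it was 3 rather than 6 under median-ratio scaling (19.5% of all genes higher, 16.5% lower) and 3 under quantile normalization (13.7% and 25%). Between LLC and Control mice Dunn's test passed 0 rather than 3, but it passed 0 of all 13305 genes there, where limma passed 4759. Leaving out each mouse in turn gave 0 to 4 genes between LLC and Control, 1 to 2 between LLC + rFibcd1 and Control, and 6 to 7 between tumor-bearing and tumor-free mice. Of 396 log2 changes under the settings other than leaving out a mouse, 16 changed sign, 14 of them with no adjusted p under 0.05 before or after. The 2 with a call on either side were Itgb5 in tumor-bearing against tumor-free mice, to −0.0091 under median-ratio scaling, and Itga6 in LLC against Control mice, to −0.24 under quantile normalization (limma adjusted p = 0.0193). The causes were not tested.

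Replicate numbers did not pair the mice: same-numbered mice of different groups had a median r of −0.061 (n = 22 pairs) against −0.026 for others (n = 85), and 1 of 17 mice was most like one of its own number. With the replicate block, 0 of the 8 genes passed between LLC and Control (5 of all genes) and 1 of the 8 between LLC + rFibcd1 and Control (173 of all genes). The other counts of the 8 stayed within 1.5 times. In tumor-bearing against tumor-free mice the block left 0 of 5 B cell markers, 1 of 5 T cell markers, 1 of 5 macrophage markers, 2 of 6 leukocyte integrin subunits, 4 of 18 matrix ligands and 0 of 5 smooth muscle markers. Of all genes 24.8% were higher and 3.67% lower in that fit. Among single changes, leaving out a mouse left 803 on the same side of the threshold, lost 10 and gained 3, and the other settings left 361, lost 29, gained 4 and turned the 2 above. Filters of 5 TPM removed Itgav and Itgb3, which gave no value there. Itgb3, at 148 to 893 reads, is the gene most limited by depth.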
